A study of Mus musculus and Homo sapiens with 14 samples.

Results

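The ZFP36 and CPEB genes encode RNA-binding proteins that act on the 3′ ends of messenger RNAs, and their transcripts were followed here in mouse and human acute myeloid leukemia cells treated with a kinase inhibitor or cut with guide RNAs. The members are Zfp36, Zfp36l1, Zfp36l2, Cpeb2, Cpeb3 and Cpeb4, which are 6 of the 20682 genes listed in each mouse table and, under their upper-case human symbols, 6 of the 19166 genes of the MOLM-13 table. They were matched by symbol, and the families were chosen by a measured value, the lower Zfp36 and Cpeb2 transcript levels with the inhibitor in RN2 cells. The values of that comparison are therefore a description with no test, and the members were tested in the knockouts and the human line. Those tests are not free of selection either, since the genes and tests were chosen with earlier results of these data known.

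PolyA-selected RNA was sequenced in 14 libraries in 7 groups of 2. RN2 cells, a mouse leukemia driven by the fusion oncogene MLL-AF9 and mutant Nras, received the salt-inducible kinase inhibitor YKL-05-099 at 350 nM for 2 h, or 0.1% DMSO for 2 h. Human MOLM-13 cells, which carry an MLL-AF9 fusion and harbored an empty vector in every library, received YKL-05-099 at 250 nM for 2 h, or 0.1% DMSO for 2 h. RN2 cells with Cas9, called RN2c, were infected with a lentiviral guide RNA against Mef2c (sgMef2c, guides 1 and 2), against Sik3 (sgSik3, guides e1 and e3) or against the Rosa26 locus as a cutting control (sgRosa26), and were collected on day 2. Every group is thus a cultured line, no cloning step is stated for the infected cells, and libraries of an edited group differ by guide. The RN2 treatment titles also contain "empty", and its meaning is not taken up here. Separate cultures are not stated for the paired libraries, so a p-value reflects library-to-library spread alone, and that spread may be technical.

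Library depth lay between 13961461 and 24275290 recovered reads. The targeted genes fell with their guides. Mef2c had values of 3892 and 4021 with sgMef2c against 8395 and 8369 with sgRosa26, and Sik3 had 1219 and 1169 with sgSik3 against 1939 and 1878 with sgRosa26. Transcript of both genes thus remained on day 2, at 0.472 of the control for Mef2c and 0.626 for Sik3. Of 12 myeloid leukemia markers, all 12 passed the filter on low values in the mouse tables. With sgSik3, 8 were higher and 1 lower, where 23.9% of all tested genes were higher and 23.9% lower by limma. The summed value of the 12 was 90857 to 91968, against 61482 to 66562 with sgRosa26. With sgMef2c, 6 were higher and 2 lower, where 16.3% of all tested genes were higher and 15.1% lower. The summed value was 92987 to 101425 with sgMef2c, against 64628 to 69786 with sgRosa26. Of 10 markers of other cell types, 2 passed the filter, and the T-cell gene Cd3e and the hemoglobin gene Hbb-bs were at 0 in all mouse libraries. Their summed value was 9907 to 10219 with sgSik3 against 8399 to 8850 with sgRosa26, and 9168 to 9797 with sgMef2c against 8829 to 9278 with sgRosa26. The neural and natural killer cell marker Ncam1 rose with sgSik3 (2871 and 3135 against 1561 and 1854 with sgRosa26, log2 fold change 0.82, limma adjusted p = 3.4e-05) and with sgMef2c (2973 and 3541 against 1640.4 and 1944 with sgRosa26, 0.86, limma adjusted p = 0.0014). The endothelial marker Pecam1 fell with sgMef2c (-0.22, limma adjusted p = 0.0048, and 0.052 without the mean-variance trend) and had a log2 fold change of 0.03 with sgSik3 (limma adjusted p = 0.47). The part of these marker shifts in the values of the ZFP36 and CPEB genes was not tested, and in bulk RNA fewer cells of a type and less RNA per cell cannot be told apart.

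ZFP36 proteins, of which tristetraprolin is the founding member, bind AU-rich elements through a pair of CCCH zinc fingers and recruit the CCR4-NOT deadenylase, so that bound transcripts lose their poly(A) tail and decay. Tristetraprolin is an immediate early gene product of macrophages and other blood cells that limits Tnf, and it binds the AU-rich region of its own transcript. CPEB proteins bind U-rich cytoplasmic polyadenylation elements and can lengthen the poly(A) tail or repress translation. Cpeb2, Cpeb3 and Cpeb4 form a subfamily apart from Cpeb1.

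The 6 mouse genes are protein coding. On GRCm38, Zfp36 lies on chromosome 7 from 28376784 to 28380253 (minus strand), Zfp36l1 on chromosome 12 from 80107754 to 80113013 (minus) and Zfp36l2 on chromosome 17 from 84183931 to 84187947 (minus). Cpeb2 lies on chromosome 5 from 43233170 to 43289724 (plus), Cpeb3 on chromosome 19 from 37021291 to 37208601 (minus) and Cpeb4 on chromosome 11 from 31872211 to 31935634 (plus).

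The 3′ UTRs of the ZFP36 genes each hold 1 copy of the nonamer TTATTTATT, the element that ZFP36 proteins bind, in the longest coding transcript of GENCODE M21. The 3 sites are shown because all ZFP36 transcripts hold the nonamer, while the CPEB transcripts hold 0 copies, as do most UTRs of their length. Capitals mark the nonamer, and each site has 10 flanking bases on either side.
Zfp36, chr7:28376951-28376979, minus strand: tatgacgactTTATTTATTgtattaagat
Zfp36l1, chr12:80108167-80108195, minus strand: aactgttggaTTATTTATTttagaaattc
Zfp36l2, chr17:84184914-84184942, minus strand: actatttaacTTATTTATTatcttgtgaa
Among 3′ UTRs within 10% of the same length, 4.44% of 1171 held the nonamer for Zfp36 (774 bases), 9.78% of 1401 for Zfp36l1 (1835 bases) and 9.83% of 1414 for Zfp36l2 (1822 bases). For the CPEB genes that share was 15.1% to 19%. The shorter heptamer TATTTAT, which lies inside the nonamer, occurred 3 times in each ZFP36 gene, 2 times in Cpeb2, 1 time in Cpeb3 and 3 times in Cpeb4. It thus did not separate the families. UTRs of like length held it in 19.8% for Zfp36, 39.3% for Zfp36l1, 38.8% for Zfp36l2 and 58.4% to 61.7% for the CPEB genes.

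The hexamer TTTTAT, a form of the element that CPEB1 binds, was counted in the same 3′ UTRs. There were 20 copies in Cpeb2 (3778 bases), 6 in Cpeb3 (3569 bases) and 11 in Cpeb4 (4102 bases), where the median 3′ UTR of like length held 3, 3 and 4. Zfp36 held 1 copy, Zfp36l1 3 and Zfp36l2 4, where the medians were 0, 1 and 1, so all 6 members held more copies than the median UTR of their length. Many UTRs of like length held at least 1 copy. The share was 45.2% for Zfp36, 75.7% for Zfp36l1, 75.9% for Zfp36l2 and 89.3% to 91.8% for the CPEB genes. For Cpeb2 and Cpeb4, the CPEB genes that changed in the knockouts, a window of 29 bases with 2 copies is shown, with the copies in capitals.
Cpeb2, chr5:43288499-43288527, plus strand: atttttccTTTTATgtactacatTTTTAT
Cpeb4, chr11:31933780-31933808, plus strand: aTTTTATtttcttatattctgctTTTTAT
These matches were read on the transcript strand only and are letters in a UTR, not shown to be bound.

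A CArG box, the element of serum response factor, was found before the RefSeq start of Zfp36, overlapping an SP1 site (GGGCGG on either strand) by 1 base. It is shown because Zfp36 is an immediate early gene and that class is described below. The 29 bases run from -70 to -42 relative to the start in the RefSeq window (GRCm38), and capitals mark the SP1 site followed by the CArG box.
Zfp36, chr7:28379270-28379298, minus strand: ccccaggCCGCCCCATAAAAGGagaaagc
In GENCODE M21 these bases lie in the first exon of a longer Zfp36 transcript. Of 32851 promoter windows of 300 bases, 1.63% held a CArG box and 35.7% an SP1 site. RefSeq windows were matched for 4 members, Zfp36, Zfp36l1, Cpeb3 and Cpeb4. Of the 4, only Zfp36 held a CArG box, and none held a MEF2 site (3.19% of all windows), a full cyclic AMP response element TGACGTCA (1.79%) or an EGR site GCGTGGGCG (0.612%), searched on both strands.

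Levels between genes were compared in the mouse groups as RPKM, recovered reads per kb of exon scaled to library depth. Zfp36l2 was the most abundant ZFP36 transcript, at 67.6 ± 0.217 RPKM with YKL-05-099 and 64.5 ± 1.32 with DMSO in RN2, and at 70.6 ± 0.617 with sgMef2c, 75.7 ± 1.87 with sgSik3 and 75.3 ± 2.83 with sgRosa26 in RN2c (SD, n = 2 each). Zfp36 stood at 9.40 ± 0.203 with YKL-05-099, 12.6 ± 0.404 with DMSO, 6.53 ± 0.117 with sgMef2c, 6.44 ± 0.283 with sgSik3 and 11.3 ± 0.629 with sgRosa26. Zfp36l1 was the scarcest, at 2.86 ± 0.0738, 3.29 ± 1.03, 0.651 ± 0.0436, 0.979 ± 0.0205 and 1.25 ± 0.133 RPKM in the same 5 groups. The order Zfp36l2, Zfp36, Zfp36l1 held in all 5 groups, and the libraries of neighbours in that order did not overlap.

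Within the CPEB family, Cpeb4 led at 10.1 ± 0.577 RPKM with YKL-05-099, 9.88 ± 0.322 with DMSO, 14.5 ± 0.0571 with sgMef2c, 16.6 ± 0.410 with sgSik3 and 12.2 ± 0.616 with sgRosa26. Cpeb2 followed at 2.20 ± 0.0442, 3.39 ± 0.235, 2.17 ± 0.205, 1.76 ± 0.111 and 3.69 ± 0.0247 in the same groups. Cpeb3 was close to the detection limit, with 2 to 11 reads in any mouse library and at most 0.0799 RPKM as a group mean. Of the paralogs that are no members, Cpeb1 had values of 0 to 8.79 in the mouse tables and 0 in MOLM-13, and Zfp36l3 was 0 in every mouse library. Human gene lengths were not used here, so MOLM-13 levels are compared between groups only.

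**Figure D1:**
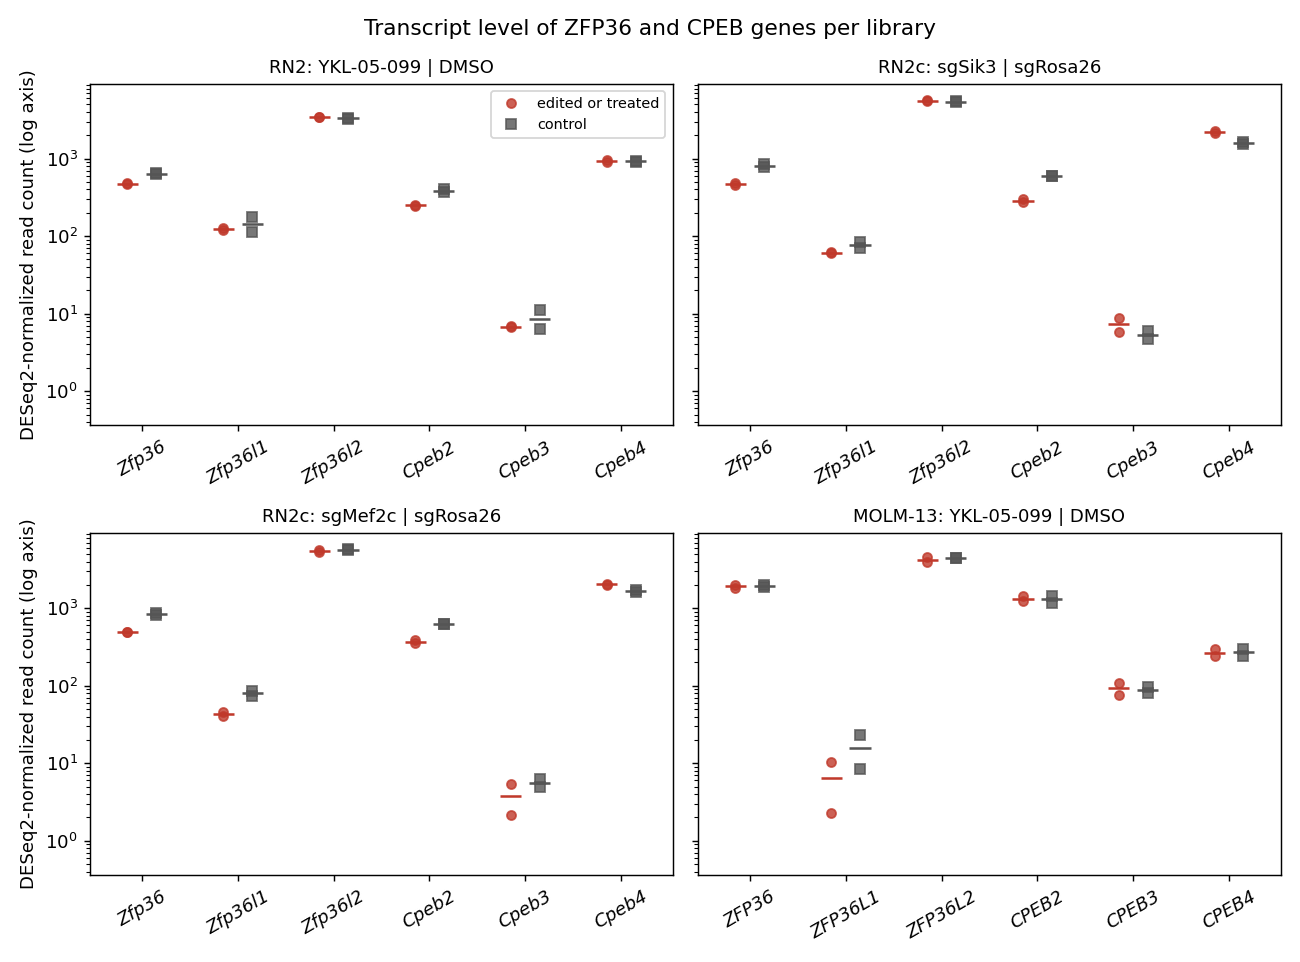
DESeq2-normalized read counts (log axis) of the 6 members in every library, treated or edited libraries as red circles left of their controls as grey squares, bars marking group means of 2 libraries. Zfp36 and Cpeb2 lie below their controls in the 3 mouse panels, and in MOLM-13 the 2 groups overlap for all 6 genes.

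In RN2, the inhibitor comparison that chose the members, Zfp36 had normalized values of 481 and 464 with YKL-05-099 against 657 and 624 with DMSO. The groups did not overlap, and the ratio of the means was 0.738 (log2 fold change -0.44 on the scale log2(value + 1), which understates the change of low genes). Cpeb2, the CPEB member with the most hexamer matches above, had 254 and 245 with YKL-05-099 against 369 and 405 with DMSO, a ratio of 0.644 (log2 fold change -0.63), again with no overlap. The share of all genes without overlap is not given here. A lack of overlap by itself therefore sets no member apart, in this or the other comparisons.

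The paralogs in the same libraries were as follows. Zfp36l2, which in mice is needed for blood formation, had 3460.1 and 3457 with YKL-05-099 against 3382 and 3265 with DMSO (log2 fold change 0.06). Its groups did not overlap either. Zfp36l1 had 126 and 121 with YKL-05-099, inside the range of the DMSO libraries at 112 and 175. Both groups also overlapped for Cpeb4, at 895 and 965 with YKL-05-099 against 900.4 and 937 with DMSO, and for Cpeb3, at 6.80 and 6.84 with YKL-05-099 against 6.30 and 11. Of 10732 genes tested with limma in RN2, 34 passed (0.317%, at a Benjamini-Hochberg adjusted p under 0.05; 0.0373% higher and 0.28% lower), and 2 of the 6 members were among them. Since the rule used this contrast, nothing is read from that count.

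In MOLM-13, where the inhibitor was given at 250 nM, no member changed past the test. ZFP36 had 1995 and 1841 with YKL-05-099 against 1891 and 1969.9 with DMSO (log2 fold change -0.01, 95% interval -0.24 to 0.22), and the treated libraries enclosed the controls. CPEB2 had 1426 and 1228 with YKL-05-099 against 1453 and 1182 with DMSO (log2 fold change 0.01, interval -0.31 to 0.34), with full overlap. These intervals do not reach the log2 fold changes of -0.44 and -0.63 seen in RN2. The genes were chosen by those RN2 values, which may therefore be overstated, so no difference between the lines is read from this. The lines also differ in species and dose, and the difference between them was not tested.

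No human paralog passed either. ZFP36L2 had 3976 and 4517 with YKL-05-099 against 4427 and 4494 (log2 fold change -0.07, interval -0.30 to 0.16). CPEB3 had 109 and 75.5 with YKL-05-099 against 96.4 and 79.6 with DMSO, and CPEB4 had 298 and 239 with YKL-05-099 against 301 and 239.5 with DMSO. For the 3 CPEB genes the library numbered 2 was the lower one in both arms, so the spread within an arm was larger than the difference between arms. ZFP36L1 was nearly silent, with 2 and 11 reads with YKL-05-099 against 8 and 27 reads with DMSO, which leaves its log2 fold change of -1.28 with an interval from -3.01 to 0.45. The adjusted p of every member was 1.00 by limma. Of 11361 genes tested, 0 passed (0%) by limma, 144 had an unadjusted p under 0.05, and edgeR called 0 and DESeq2 7.

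With sgSik3, 5 members passed the filter on low values, and Cpeb3 did not. Zfp36 had 453 and 479 with sgSik3 against 769 and 839.7 with sgRosa26, and both edited libraries were far below both controls. Its log2 fold change was -0.78 (SE 0.07, 95% interval -0.94 to -0.63, limma adjusted p = 2.7e-05), a ratio of 0.580. Cpeb2 had 302 and 274 with sgSik3 against 591 and 590.4 with sgRosa26, which is a fall to 0.487 of the control (log2 fold change -1.04, SE 0.08, interval -1.22 to -0.86, limma adjusted p = 1.2e-05).

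Cpeb4, described in mouse liver and other tissues as a translational regulator under stress, went the other way. It had 2259 and 2167 with sgSik3 against 1522 and 1649 with sgRosa26, so both edited libraries exceeded both controls (ratio 1.396, log2 fold change 0.48, SE 0.05, interval 0.37 to 0.59, limma adjusted p = 6.4e-05). Zfp36l1 had 62.3 and 60.04 with sgSik3 against 70.6 and 82.8 with sgRosa26. The groups did not overlap, yet the gene did not pass (log2 fold change -0.32, interval -0.71 to 0.07, limma adjusted p = 0.16). Zfp36l2 had 5698 and 5465 with sgSik3 against 5559 and 5318 with sgRosa26 (log2 fold change 0.04, interval -0.05 to 0.12, limma adjusted p = 0.44), with overlapping groups. Cpeb3 had 5.84 and 8.73 with sgSik3 against 4.70 and 5.98 with sgRosa26, also overlapping. In all, 3 members were called, where 5226 of 10934 tested genes were (47.8%, with 23.9% higher and 23.9% lower), so a call by itself sets a member apart little in this comparison.

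With sgMef2c, Zfp36 had 499 and 496 against 809 and 880.3 with sgRosa26, with no overlap (ratio 0.589, log2 fold change -0.76, SE 0.07, interval -0.92 to -0.60, limma adjusted p = 0.00063). Cpeb2 had 393 and 351 with sgMef2c against 621 and 619 with sgRosa26, again apart (ratio 0.600, log2 fold change -0.74, SE 0.08, interval -0.93 to -0.55, limma adjusted p = 0.0011). Zfp36l1, a paralog that in mice is needed for lymphocyte development together with Zfp36l2, fell as well. It had 40.3 and 45.2 with sgMef2c against 74.2 and 86.8 with sgRosa26 (ratio 0.531, log2 fold change -0.89, SE 0.18, interval -1.33 to -0.46, limma adjusted p = 0.011). Leaving out sgRosa26 replicate 2 ended this call (limma adjusted p = 0.065), as did DESeq2 (adjusted p = 0.067).

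Cpeb4 rose with sgMef2c, at 2017 and 2048 against 1599.9 and 1729 with sgRosa26, with no overlap (ratio 1.22, log2 fold change 0.29, SE 0.05, interval 0.17 to 0.41, limma adjusted p = 0.0067). Without the mean-variance trend the adjusted p was 0.055. Zfp36l2 had 5384 and 5566 with sgMef2c against 5844 and 5576 with sgRosa26 (log2 fold change -0.06, interval -0.16 to 0.04, limma adjusted p = 0.31). Its groups lay next to each other without overlapping. Cpeb3 had 5.37 and 2.15 with sgMef2c against 4.94 and 6.27 with sgRosa26, and it did not pass the filter. The 4 calls among the members stand against 3442 of 10956 tested genes (31.4%, with 16.3% higher and 15.1% lower). Both knockout comparisons use the same sgRosa26 libraries, so their values stand side by side here without a test of their likeness.

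**Figure D2:**
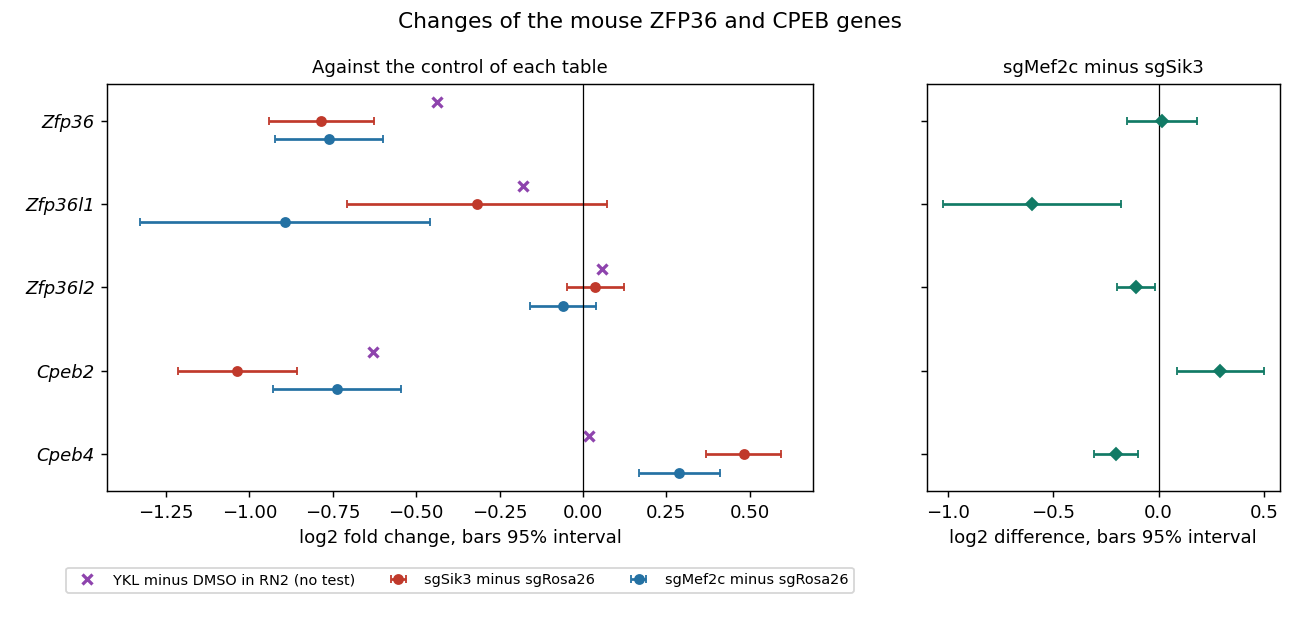
Log2 fold changes of the 5 mouse members that passed the filter (left, limma) and the log2 difference between the knockouts (right, edgeR), with 95% intervals as bars and crosses without bars for the RN2 inhibitor comparison. Zfp36 and Cpeb2 lie left of 0 and Cpeb4 lies right of 0 in both knockouts, while the intervals of Zfp36l2 in the left panel include 0.

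Set directly against each other, the knockouts differed for 1 member. On a common normalization of the 6 RN2c libraries, Cpeb4 had 1956 and 1988 with sgMef2c against 2309.6 and 2214 with sgSik3, where sgRosa26 stood at 1556 and 1684. The edgeR log2 difference was -0.20 (SE 0.05, 95% interval -0.31 to -0.10, adjusted p = 0.028), so Cpeb4 was lower with sgMef2c than with sgSik3. The call was lost without any 1 of the 4 edited libraries (edgeR adjusted p = 0.062 to 0.24) and with DESeq2 (adjusted p = 0.082).

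For Zfp36 the difference was 0.02 (interval -0.15 to 0.18, edgeR adjusted p = 0.91), with 484 and 482 for sgMef2c against 464 and 489.7 for sgSik3. Cpeb2 stood at 381 and 341 with sgMef2c against 308 and 280.02 with sgSik3, a log2 difference of 0.29 (interval 0.09 to 0.50) that did not pass (edgeR adjusted p = 0.075). Zfp36l1 stood at 39.1 and 43.9 with sgMef2c against 63.7 and 61.4 with sgSik3, a difference of -0.60 (interval -1.02 to -0.18, edgeR adjusted p = 0.078). Zfp36l2 differed by -0.11 (interval -0.20 to -0.02, edgeR adjusted p = 0.13). Of 10954 genes, 1034 passed this test (9.44%, with 3.7% higher and 5.74% lower).

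The make-up of the families differed between groups. By RPKM, Zfp36 made up 11.8% ± 0.245 of the ZFP36 family with YKL-05-099 and 15.7% ± 0.366 with DMSO, and 8.39% ± 0.209 with sgMef2c, 7.75% ± 0.490 with sgSik3 and 12.9% ± 1.02 with sgRosa26 (SD, n = 2 each). The family sum was 79.9 RPKM with YKL-05-099 and 80.4 with DMSO, and 77.8 with sgMef2c, 83.1 with sgSik3 and 87.9 with sgRosa26. The share of Cpeb2 in its family was 17.9% ± 1.13 with YKL-05-099 and 25.4% ± 0.645 with DMSO, and 13.0% ± 1.01 with sgMef2c, 9.55% ± 0.339 with sgSik3 and 23.3% ± 1.03 with sgRosa26. The CPEB sum was 12.4 with YKL-05-099 and 13.3 with DMSO, and 16.7 with sgMef2c, 18.4 with sgSik3 and 15.9 with sgRosa26, so in RN2c it was higher in the edited cells while Cpeb2 itself was lower. These shares repeat the fold changes above on another scale and were not tested. They also depend on the length used. For Zfp36 the union of exons has 3470 bases and the longest transcript 2790. For Zfp36l1 and Zfp36l2 both lengths are the same, at 2990 and 3530 bases. The shorter length would raise the level and share of Zfp36 in every group.

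**Figure D3:**
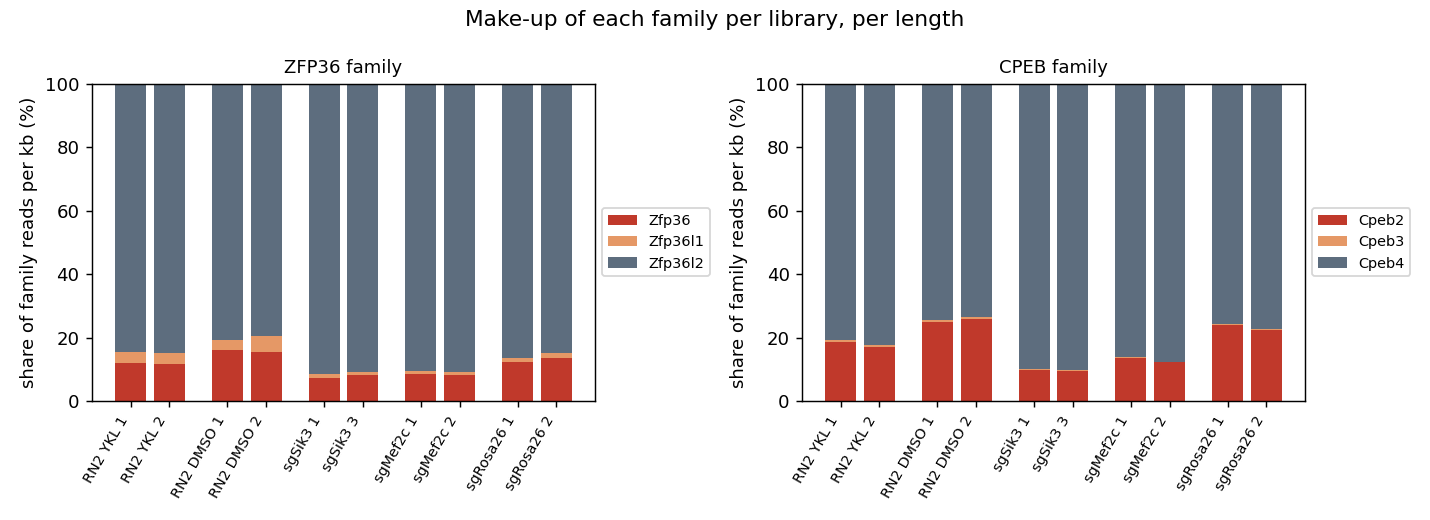
Share (%) of each member in the summed RPKM of its family, 1 stacked bar per mouse library, edited or treated libraries left of their controls. Zfp36l2 and Cpeb4 fill most of every bar, and the red segment of Zfp36 or Cpeb2 is smaller in treated and edited libraries, for example 9.55% for Cpeb2 with sgSik3 and 23.3% with sgRosa26.

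ZFP36 proteins recruit deadenylases. The counts called in this and the following lists stand beside 31.4% of all tested genes called with sgMef2c and 47.8% with sgSik3, and no list was tested against that share. Of 14 deadenylase genes tested with sgSik3, 3 were higher and 2 lower, with a median log2 fold change of 0.05 where the median of all genes was 0.00. Cnot8, a catalytic subunit, rose with sgSik3 (3178 and 2983 against 2507 and 2567 with sgRosa26, log2 fold change 0.28, limma adjusted p = 0.00058), as did the catalytic subunit gene Cnot6l (0.19, limma adjusted p = 0.0013). The scaffold gene Cnot1, chosen after its values were seen, had a log2 fold change of 0.01 with sgSik3 and 0.02 with sgMef2c. With sgMef2c, 2 of 14 were higher and 0 lower (median 0.02), Cnot8 among them (0.21, limma adjusted p = 0.015), a call that ended when sgRosa26 replicate 1 (0.072) or sgMef2c guide 2 (0.070) was left out, and without the mean-variance trend (0.080). In RN2 the median was -0.01, and in MOLM-13, where 13 were tested, 0.04 with 0 called.

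Of the BTG and TOB adaptors, which link RNA-binding proteins to the deadenylase, 5 were tested in each table. Btg2, itself an immediate early gene, rose with sgSik3 (393 and 349 against 238 and 259 with sgRosa26, log2 fold change 0.58, limma adjusted p = 0.0012), and 2 of 5 were higher and 0 lower. With sgMef2c, 1 was higher and 1 lower. Btg2 had a log2 fold change of 0.41 there, a call that ended when sgRosa26 replicate 1 (limma adjusted p = 0.15), sgRosa26 replicate 2 (0.074) or sgMef2c guide 2 (0.22) was left out, and with DESeq2 (adjusted p = 0.089). Btg1 fell with sgMef2c (961 and 949 against 1194 and 1241 with sgRosa26, log2 fold change -0.35, limma adjusted p = 0.0033).

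Among 16 genes of decapping and 5′ decay, 3 were higher and 1 lower with sgSik3 (median -0.01), and 1 was higher and 0 lower with sgMef2c (median 0.02). The helicase gene Ddx6 rose with sgSik3 (log2 fold change 0.20, limma adjusted p = 0.00088), and Lsm7, of the ring that binds shortened tails, fell (-0.40, limma adjusted p = 0.0030). Dcp2, which encodes the decapping enzyme, was called in both, with log2 fold changes of 0.15 with sgSik3 (limma adjusted p = 0.0048) and 0.16 with sgMef2c (0.016). Without the mean-variance trend its adjusted p was 0.057 with sgSik3 and 0.085 with sgMef2c, and the sgMef2c call also ended without sgRosa26 replicate 1 (0.051), sgRosa26 replicate 2 (0.099) or sgMef2c guide 2 (0.060). Other regulators of AU-rich and stem-loop transcripts, 13 tested, had 0 higher and 5 lower with sgSik3 (median -0.05), and 0 higher and 1 lower with sgMef2c (median -0.08). Zc3h12c, a CCCH-type gene of the regnase family, fell in both, with 279 and 347 in sgSik3 against 525 and 519.6 in sgRosa26 (log2 fold change -0.74, limma adjusted p = 0.00039), and with 372 and 355 in sgMef2c against 552 and 545 in sgRosa26 (-0.59, limma adjusted p = 0.0017). Ybx1, a cold-shock protein gene, fell with sgSik3 (-0.23, limma adjusted p = 0.00031).

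Kinases, phosphatases and 14-3-3 adaptors act on ZFP36 proteins, since phosphorylated tristetraprolin is held inactive by 14-3-3 proteins and is reactivated by the phosphatase PP2A. Of 14 tested, 5 were higher and 5 lower with sgSik3 (median 0.00; 47.8% of all genes called), and 3 higher and 1 lower with sgMef2c (median 0.04; 31.4% of all genes called). Ppp2cb, which encodes a PP2A catalytic subunit, rose with sgSik3 (5251 and 4997 against 3647 and 3503 with sgRosa26, log2 fold change 0.52, limma adjusted p = 1.1e-05) and with sgMef2c (4884 and 5235 against 3834 and 3673 with sgRosa26, 0.43, limma adjusted p = 0.0012). The PP2A genes Ppp2ca and Ppp2r1a, named after their values were seen, went the other way with sgSik3. Their log2 fold changes were -0.10 (limma adjusted p = 0.031) and -0.11 (limma adjusted p = 0.017). Dusp1, a phosphatase of the p38 pathway, rose with sgSik3 (133 and 135 against 64.0 and 72.8 with sgRosa26, 0.97, limma adjusted p = 0.00064). The 14-3-3 gene Ywhah rose with sgMef2c (0.31, limma adjusted p = 0.0021) and was also called with sgSik3 (0.10, limma adjusted p = 0.0497). Ywhaq, another 14-3-3 gene, was called lower with sgSik3 (-0.11, limma adjusted p = 0.048) and with sgMef2c (-0.14, limma adjusted p = 0.045). The sgSik3 calls of both genes ended without sgRosa26 replicate 2 or either sgSik3 guide (limma adjusted p = 0.066 to 0.30), and the sgMef2c call of Ywhaq ended without any 1 of the 4 libraries (0.086 to 0.17). DESeq2 called neither gene with sgSik3 (adjusted p = 0.25 for Ywhah and 0.23 for Ywhaq), nor Ywhaq with sgMef2c (0.22).

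Transcripts reported as targets of ZFP36 proteins moved in both directions with sgSik3, where Zfp36 was at 0.580 of its control. Of 17 tested, 6 were higher and 6 lower, with a median log2 fold change of 0.03. Ccl3, a chemokine gene with AU-rich elements, fell to 357 and 386 with sgSik3 against 1716 and 1776 with sgRosa26 (log2 fold change -2.23, limma adjusted p = 8.3e-08). The cyclin gene Ccnd1 fell to 2548 and 2643 with sgSik3 against 5937 and 5808 (-1.18, limma adjusted p = 1.4e-07), and the survival gene Bcl2 to 1537 and 1611 against 3079.8 and 3031 (-0.96, limma adjusted p = 5.9e-07). Notch1, a receptor gene repressed by Zfp36l1 and Zfp36l2 in mouse thymocytes, rose to 2821 and 2766 with sgSik3 against 1619.8 and 1579.6 with sgRosa26 (0.80, limma adjusted p = 1.2e-06).

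Tnf, the classic target of tristetraprolin, was lower in both knockouts, as was Fos. Tnf had 359 and 355 with sgSik3 against 586 and 515 with sgRosa26 (-0.62, limma adjusted p = 0.00030), and 321 and 329.6 with sgMef2c against 616 and 539.5 with sgRosa26 (-0.82, limma adjusted p = 0.0010). Fos had log2 fold changes of -0.64 with sgSik3 (limma adjusted p = 0.00046) and -0.74 with sgMef2c (limma adjusted p = 0.0019). Il1b, which encodes interleukin 1 beta and was chosen after its values were seen, had 62.3 and 63.3 with sgSik3 against 12.2 and 12.0 with sgRosa26 (log2 fold change 2.28, limma adjusted p = 7.4e-05). Cxcl2 and Ier3, also named after their values were seen, rose with sgSik3 too. Cxcl2 was scarce, at 18.5 and 25.1 against 2.82 and 1.99 with sgRosa26 (2.74, limma adjusted p = 0.00077). Ier3 had 370 and 429 against 250 and 277 (0.59, limma adjusted p = 0.0013).

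With sgMef2c, 1 of 15 tested targets was higher and 6 were lower (median -0.01). Notch1 was the one that rose (2422 and 2666 against 1703 and 1656 with sgRosa26, 0.60, limma adjusted p = 0.00070). Ccl3 (-1.71, limma adjusted p = 0.00029), Bcl2 (-1.05, limma adjusted p = 0.00029), Ccnd1 (-1.28, limma adjusted p = 0.00070) and Myc (-0.36, limma adjusted p = 0.0016) fell, with Tnf and Fos. Il1b had 14.3 and 18.3 with sgMef2c against 12.9 and 12.5 with sgRosa26 and did not pass (log2 fold change 0.33, limma adjusted p = 0.47). Between the knockouts, 7 of 15 targets differed by edgeR, 2 higher and 5 lower with sgMef2c, against 9.44% of all genes.

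In RN2 the 13 targets that passed the filter had a median log2 fold change of -0.08, with Ccl3 (462 and 519 with YKL-05-099 against 1396 and 1879 with DMSO, -1.72) and Myc (2318 and 2025 with YKL-05-099 against 3450.4 and 2908 with DMSO, -0.55). In MOLM-13, 14 targets were tested and 0 passed by limma (median -0.04). TNF was at 0 in all 4 MOLM-13 libraries, and CCL3 had 9.27 and 11.5 with YKL-05-099 against 16.8 and 32.5 with DMSO.

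**Figure D4:**
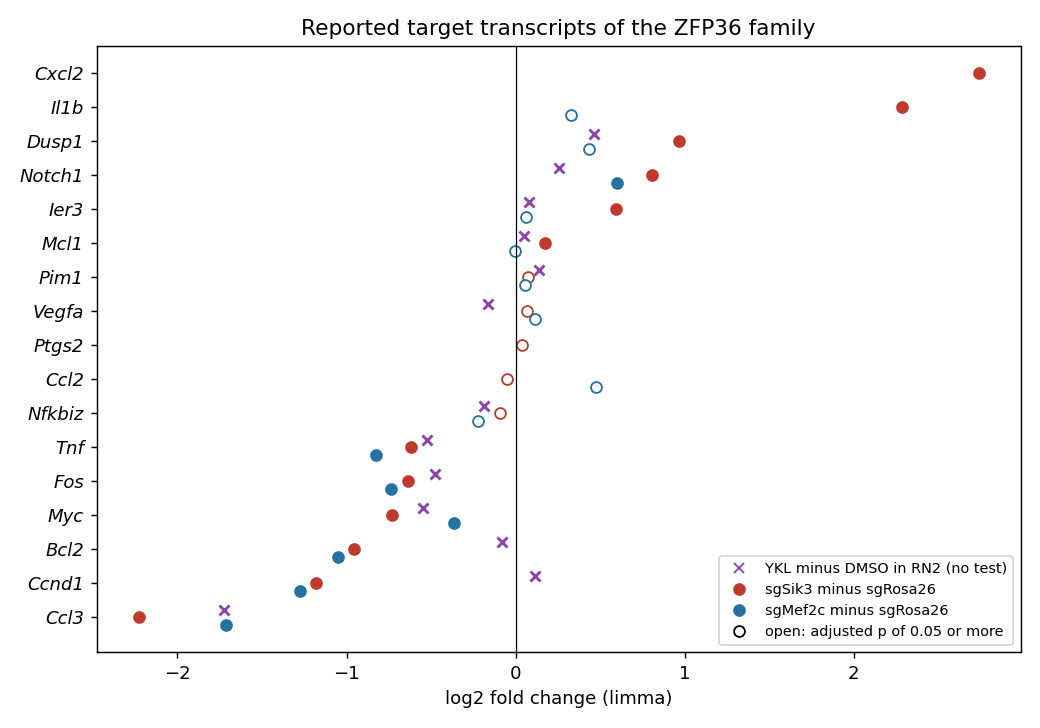
Log2 fold change (limma) of 17 reported ZFP36 target transcripts in RN2 (crosses, no test shown) and in the knockouts (circles, filled where the adjusted p is under 0.05). Ccl3, Ccnd1, Bcl2, Myc, Fos and Tnf are lower in both knockouts and Notch1 is higher in both, while Il1b is filled for sgSik3 at 2.28 and open for sgMef2c at 0.33.

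Zfp36 is also an immediate early gene. Of 21 immediate early genes tested with sgSik3, 6 were higher and 9 lower (median -0.16), and with sgMef2c 2 were higher and 7 lower (median -0.16). Junb, an AP-1 subunit gene, had 1000.2 and 994 with sgSik3 against 1253 and 1237 with sgRosa26 (log2 fold change -0.32, limma adjusted p = 0.00051), and 1060.1 and 966 with sgMef2c against 1317 and 1296 with sgRosa26 (-0.37, limma adjusted p = 0.0048). Jun fell with sgMef2c (97.6 and 90.5 against 223 and 183 with sgRosa26, -1.10, limma adjusted p = 0.0020). With sgSik3 it had 125 and 162 against 213 and 175 with sgRosa26 (-0.44, limma adjusted p = 0.044), a call that ended without sgRosa26 replicate 1 (0.11) or sgSik3 guide e1 (0.30) and with DESeq2 (adjusted p = 0.13). The transcription factor genes Fosb, Fosl1 and Atf3 were called lower in both knockouts, with log2 fold changes of -1.58, -0.68 and -1.70 with sgSik3 and -1.87, -0.79 and -1.07 with sgMef2c (limma adjusted p = 0.0055 to 0.023). Fosb and Atf3 were scarce, with at most 45.0 in any RN2c library. Without the mean-variance trend, the sgSik3 calls of Fosb (limma adjusted p = 0.055) and Atf3 (0.069) ended, as did the sgMef2c call of Fosl1 (0.05002). The sgMef2c call of Atf3 also ended with DESeq2 (adjusted p = 0.15). With sgSik3, the calls of Fosb (0.077) and Fosl1 (0.053) ended without guide e1. With sgMef2c, that of Fosb ended without sgRosa26 replicate 2 (0.082), that of Fosl1 without sgRosa26 replicate 1 (0.064) or guide 2 (0.062), and that of Atf3 without sgRosa26 replicate 1 (0.057), sgRosa26 replicate 2 (0.11) or guide 2 (0.11). In RN2, 20 were tested (median -0.15), and Egr1 had 181 and 156 with YKL-05-099 against 295 and 316 with DMSO (-0.86). With sgSik3, Egr1 was instead higher, at 426 and 418 against 276 and 335 with sgRosa26 (0.47, limma adjusted p = 0.0046). Dusp1 (0.97), Btg2 (0.58) and Ier3 (0.59), of the same list and given above, were also higher with sgSik3 (limma adjusted p = 0.00064 to 0.0013). The median in MOLM-13 was 0.05 over 20 tested genes, with 0 called.

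Of 16 genes that act with CPEB proteins in cytoplasmic polyadenylation and tail binding, 0 were higher and 7 lower with sgSik3 (median -0.13), where 23.9% of all genes were higher and 23.9% lower. With sgMef2c, 0 were higher and 3 lower (median -0.06), where 16.3% of all genes were higher and 15.1% lower. Pabpc4, a poly(A)-binding protein gene, had 2619 and 2663 with sgSik3 against 3878 and 3737 with sgRosa26 (log2 fold change -0.53, limma adjusted p = 6.9e-06). Eif4e, the cap-binding factor gene, had 3043 and 2929 with sgSik3 against 3758 and 3681 with sgRosa26 (-0.32, limma adjusted p = 0.00013), and 3238 and 3313 with sgMef2c against 3950.3 and 3859 with sgRosa26 (-0.25, limma adjusted p = 0.0039). Sympk, a scaffold of the polyadenylation complex, fell with sgSik3 (-0.22, limma adjusted p = 0.00082). In sgMef2c, Pabpc4 (-0.20) and Sympk (-0.13) lost their calls without either sgRosa26 library, without guide 2 and without the mean-variance trend (limma adjusted p = 0.052 to 0.15). In RN2 and MOLM-13 the medians were -0.01 and -0.03 over 16 genes each, with 0 called in MOLM-13.

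The genes whose pattern was most like that of Zfp36 over the 10 mouse libraries, centred within RN2 and within RN2c, were Glg1 (Pearson's r 0.98), Slc39a14, a zinc transporter gene (0.98), and Ccl4, a chemokine gene (0.98), out of 9293 genes compared. Those most like Cpeb2 were Lrrc58 (0.99), the phosphatase gene Phlpp2 (0.99) and Ccl3 (0.99). Phlpp2 had log2 fold changes of -1.31 with sgMef2c, -1.79 with sgSik3 and -1.19 with YKL-05-099 in RN2, and Slc39a14 had -0.74, -0.81 and -0.34. Among the members, r was 0.95 between Cpeb2 and Zfp36, -0.81 between Cpeb4 and Zfp36 and -0.83 between Cpeb4 and Cpeb2. The 10 libraries share lines, control libraries and normalization, so these values describe the pattern and carry no p. They also include the RN2 libraries by which Zfp36 and Cpeb2 were chosen, so their r was in part set by that choice. Over the 6 RN2c libraries alone, r between Cpeb2 and Zfp36 was 0.95, which restates that both genes fell in both edited groups.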

How the data were processed

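The submitters' processing notes name HISAT2, featureCounts, DESeq2 and the builds mm10 and hg19. Their versions and the annotation were not given in the sources used here. What the authors deposited is 4 tables, 1 for each comparison, of DESeq2-normalized values, which are a signal on a linear scale (read counts divided by a size factor per library). Dividing each library by its smallest nonzero value gave whole reads for 100% of the values (within 1e-06 reads, largest deviation 6.1e-10). The sgRosa26 reads were identical in both RN2c tables (0 genes differed).

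Within each table, genes averaging 10 or more were tested with limma 3.58.1 in R 4.3.3 on log2(value + 1), with a mean-variance trend, two-sided, Benjamini-Hochberg adjustment over all genes tested and a threshold of 0.05. On recovered reads, edgeR 4.0.16 (quasi-likelihood) tested sgMef2c against sgSik3 directly in the 6 RN2c libraries with TMM factors, and edgeR and DESeq2 1.42.0 served as alternatives. No sequencing batch is given in the labels. The labels do not say that reads were counted by strand, so antisense reads cannot be told apart.

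Lengths and 3′ UTRs came from GENCODE M21 (GRCm38), which may differ from the authors' annotation, with the union of exons as length and the longest coding transcript for 21683 UTRs. Promoter windows came from RefSeq (GRCm38). The ZFP36 and CPEB genes, the gene lists and the tests were chosen with earlier results of these data known. Of each list, genes named are up to 4 of lowest p in a comparison and any called in both knockouts, and exceptions are stated. Myeloid markers are given by counts and sums. Genes like Zfp36 or Cpeb2 were the 3 of highest r with a mean value of at least 50 in both lines, passing over predicted or unnamed models. Other settings tried were pseudocounts of 0.5 and 5, no filter, TMM scaling, no trend, a replicate block and leaving out each library, and scripts were tested on simulated data.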

Additional observations from a re-analysis of the deposited data

Results flagged for a closer look

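The effects of the knockouts on Cpeb4 differed by the direct edgeR test, but the call did not hold in most alternative runs. Cpeb4 had an edgeR log2 difference of -0.20 between sgMef2c and sgSik3 (adjusted p = 0.028), with log2 fold changes against sgRosa26 of 0.29 for sgMef2c and 0.48 for sgSik3. The edited libraries did not overlap, with 1956 and 1988 for sgMef2c against 2309.6 and 2214 for sgSik3, which by itself sets no member apart. The call was lost with DESeq2 and whenever an edited library was left out, so the difference is not firm. Of all genes, 9.44% passed the same edgeR test. No group held 4 or more libraries, so single libraries were not tested for standing apart.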

How the results depend on the processing

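With 2 libraries per group, the spread rests on few degrees of freedom. Of the 6 members, the number called with sgSik3 was 3 in every alternative run, and with sgMef2c it was 3 or 4. In RN2 it was 2, but 0 without the filter on low values, 0 without the mean-variance trend, 1 with TMM scaling, 1 with edgeR and 1 with DESeq2, and 0 to 2 when a library was left out. In the direct test it was 1, but 0 with DESeq2, 2 without the filter (Cpeb2 joined, edgeR adjusted p = 0.037) and 0 without any 1 of the 4 edited libraries.

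In MOLM-13 the near-zero changes turned sign in some fits that left out 1 library. Log2 fold changes then ranged from -0.068 to 0.048 for ZFP36 (0.019 and 0.048 where turned), from -0.17 to 0.018 for ZFP36L2, from -0.13 to 0.16 for CPEB2 (-0.13 and -0.094), from -0.21 to 0.31 for CPEB3 (-0.088 and -0.21) and from -0.17 to 0.15 for CPEB4 (0.15 and 0.15). ZFP36L1 gave no value without DMSO replicate 2. The direct difference of Zfp36 ranged from -0.024 (without sgSik3 guide e1) to 0.059. Apart from these 10 sign changes, 1093 of the single-gene values counted as unchanged, 123 lost a call and 1 gained one. Unchanged meant the same direction and the same side of the threshold. For the members in RN2 it meant a log2 fold change within the pooled SD of the main value, on either side of the threshold. The member calls lost in RN2 are therefore not among the 123.

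Library numbers are shared in the labels, but their deviations correlated at 0.22 in RN2, 0.53 in MOLM-13 and 0.05 in sgMef2c over only 2 pairs each, so the pairing is not shown. With the replicate block, members called were 2 in RN2, 0 in MOLM-13 and 4 in sgMef2c, and all genes called were 499, 290 and 3905. The sgMef2c numbers name guides and the sgRosa26 numbers do not, so the sgMef2c block has no stated basis and nothing is read from it. No paired analysis was possible for sgSik3 because its guides share only 1 number with sgRosa26.

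Counts of all genes called moved by over 1.5 times in some settings. In RN2 (34) they were 3 without the filter, 0 without the trend and 28 to 321 with a library left out. In MOLM-13 (0) they were 7 with DESeq2 and 14 to 20 with a library left out. In sgMef2c (3442) they were 1628 without the trend, 2255 with DESeq2 and 1815 to 3138 with a library left out. In the direct test (1034) they were 606 with DESeq2 and 45 to 900 with a library left out. The order of levels per length held in 5 of 5 groups with the longest transcript as length, an alternative chosen after seeing the data, as were the alternatives for genes of the lists. The cause of these shifts was not tested. Depth limits Cpeb3 in the mouse lines, at 2 to 11 reads, and ZFP36L1 in MOLM-13.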
